A study of Mus musculus with 16 samples.

Results

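The proteasome is the protease that degrades proteins marked with ubiquitin. The members described here are its subunits, taken as every gene of the deposited expression table whose symbol is Psma, Psmb, Psmc or Psmd followed by a number. That rule found 39 of 23946 genes. It leaves out proteasome genes with other symbols, which are given below as neighbours of the pathway.

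PolyA RNA of adult male FVB mice, an inbred strain, 10 to 13 weeks old, was sequenced from heart tissue in 16 libraries. The 4 groups of 4 libraries were the right ventricular free wall of banded mice, the right ventricular free wall of sham-operated mice, and the left ventricle of banded and of sham-operated mice. Banding narrows the pulmonary artery and loads the right ventricle, while the left ventricle is not loaded directly. The label PS is not spelled out. The protocol lists banding and sham surgery, and PS is taken here to mean banded. The study set hearts with right ventricular failure after banding against controls. Values of banded libraries are listed in the order PS_9552, PS_9553, PS_9561, PS_9564, and those of sham libraries in the order of their numbers, 1 to 4. Right and left libraries carry the same numbers, the labels do not say whether these mark 1 mouse, and the tests treat the libraries as independent. The time after surgery and whether a library is 1 mouse or a pool were not given in the sources used here, so the p-values measure only the spread between these libraries, which may be technical.

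The proteasome consists of a barrel-shaped core particle capped by a regulatory particle. In the core, rings of alpha subunits (Psma) form the gate and rings of beta subunits (Psmb) hold the active sites. The active sites sit on Psmb5, Psmb6 and Psmb7, and under interferon they can be replaced in newly made particles by Psmb8, Psmb9 and Psmb10, which gives the immunoproteasome. The regulatory particle has a base with a ring of ATPases (Psmc) that unfold and thread substrates, and a lid of Psmd subunits, one of which, Psmd14, removes the ubiquitin chain. Psmd5, Psmd9 and Psmd10 are chaperones that help to assemble the base. When the proteasome is short, the transcription factor Nfe2l1 is known to raise many subunit genes at once through antioxidant response elements, and heart muscle relies on the proteasome for the turnover of contractile proteins.

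Promoter sequence is shown for 3 members, because Psmc1 and Psmd4 had the smallest left ventricular p-values among members with a window and Psmb5 was the only member with the letters TGANTCAGC, the single pattern searched for the antioxidant response element. RefSeq gave a window of 250 bases before to 50 bases after the start for 32 of 39 members, in build GRCm38.p6, while the authors' values were made on mm9. Capitals mark the letters TGANTCAGC (antioxidant response element type), CCAAT (the CCAAT box) or TTTC repeated after a gap of 2 bases (interferon-stimulated response element type) on either strand, and no marked motif overlapped another. The windows lie at chr12:100109952-100110251 (plus strand), chr3:95042565-95042864 (minus strand) and chr14:54617946-54618245 (minus strand) and are written 5′ to 3′ along the gene.
Psmc1: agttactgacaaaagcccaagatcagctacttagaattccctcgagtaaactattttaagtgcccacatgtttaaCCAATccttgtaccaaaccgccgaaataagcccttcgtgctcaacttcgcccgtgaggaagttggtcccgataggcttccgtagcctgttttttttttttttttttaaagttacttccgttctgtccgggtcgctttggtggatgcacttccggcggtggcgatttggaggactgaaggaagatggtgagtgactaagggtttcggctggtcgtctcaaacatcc
Psmd4: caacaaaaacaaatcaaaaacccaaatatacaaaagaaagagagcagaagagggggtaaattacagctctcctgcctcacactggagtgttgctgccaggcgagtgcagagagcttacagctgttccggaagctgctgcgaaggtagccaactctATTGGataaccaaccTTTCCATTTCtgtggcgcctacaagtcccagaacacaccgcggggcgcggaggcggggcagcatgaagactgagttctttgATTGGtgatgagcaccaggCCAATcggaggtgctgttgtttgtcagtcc
Psmb5: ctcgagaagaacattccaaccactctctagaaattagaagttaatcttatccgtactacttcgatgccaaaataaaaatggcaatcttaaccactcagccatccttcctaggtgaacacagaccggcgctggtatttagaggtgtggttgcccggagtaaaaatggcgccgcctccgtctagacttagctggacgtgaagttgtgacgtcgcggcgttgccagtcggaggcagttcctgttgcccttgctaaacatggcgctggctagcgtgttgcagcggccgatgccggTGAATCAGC
The TGANTCAGC letters were in the window of 1 of 32 members (3.13%), against 1.37% of 27025 genes and 1.19% of 32851 windows. In Psmb5 the first base of the match lay 41 bases after the annotated start. CCAAT was found in 13 members (40.6%), against 41.1% of genes and 37.4% of windows. The repeated TTTC was found in 3 members (9.38%: Psmb3, Psmd4 and Psmd9), against 3.99% of genes and 3.44% of windows. A match is a description of the letters and does not show that a factor binds there. Other forms of these elements were not searched, so a window without a match may still hold one.

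Values are FPKM, fragments per kilobase of transcript and per library size, as deposited by the authors. Differences were tested as log2(FPKM + 1) in 1 limma fit of the 4 group means over 12100 genes, each reaching 1 FPKM in 4 or more libraries, with Benjamini-Hochberg adjustment over all of these and a threshold of 0.05. The fold of low genes is understated on this scale. The typical level of the libraries differed: Rn45s (ribosomal RNA precursor) had a listed value of 0 in 5 banded libraries (left PS_9552, PS_9553 and PS_9561, right PS_9561 and PS_9564), whose scale factors were 1.22 to 1.28 against 0.840 to 1.02 in the other 11. The fit was therefore repeated on values divided by these factors (rescaled), and a subunit is said to have risen or fallen only where it passed in the same direction on both scales. The median difference of all tested genes was 0.26 as deposited and 0.11 rescaled in the right ventricle, and 0.33 and 0.0083 in the left. Estimated depth was 2.29e+06 to 5.52e+06 fragments in banded right ventricles, 3.38e+05 to 1.43e+06 in sham right ventricles, 3.55e+06 to 9.15e+06 in banded left ventricles and 1.65e+06 to 4.53e+06 in sham left ventricles, so the sham right ventricle gives the least precise values.

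Heart muscle markers were abundant in every library, with summed levels of 8 cardiomyocyte genes of 23873 FPKM or more. Of the 39 members, 37 passed the filter. Psmb11, the catalytic subunit of the thymus proteasome, was listed at 0 in all 16 libraries. Psma8, the alpha subunit of the testis proteasome, reached at most 0.548 FPKM. Per length, the most abundant subunit in every group was Psmb2, a beta subunit without an active site, at 133 ± 16.3 FPKM in banded right ventricles, 166 ± 20.2 in sham right ventricles, 192 ± 13.2 in banded left ventricles and 128 ± 8.97 in sham left ventricles (mean ± SD, n = 4 each). The lowest of the tested members in every group was Psmd5, at 5.38 ± 1.25 FPKM in banded right ventricles, 1.63 ± 1.57 in sham right ventricles, 6.35 ± 2.02 in banded left ventricles and 4.23 ± 1.44 in sham left ventricles.

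In banded left ventricles 8 of 37 tested subunits rose against sham left ventricles. All 37 had a log2 difference above 0 both as deposited and rescaled, where this held for 9885 and 6155 of all 12100 tested genes. The median subunit difference was 0.93 as deposited and 0.53 rescaled, against 0.42 and 0.093 for 4752 other genes with transcripts of similar length (984.8 to 2873.2 nt). Some subunits lie outside this range. Psmb2, Psmb3, Psmb5 and Psmb6 are shorter (766 to 899 nt), and Psma2, Psmd1, Psmd2 and Psmd5 are longer (2911 to 4397 nt). The 8 that passed on both scales were the base subunits Psmc1, Psmc3, Psmc6, Psmd1, Psmd2 and Psmd4, the lid subunit Psmd7 and the alpha subunit Psma6, against a background of 2.44% of all tested genes called higher. As deposited alone, 25 passed as higher (background 14.3%). None was called lower (background 0.298%), and none had a lower difference at an unadjusted limma p under 0.05 on either scale. Without overlap between the libraries of the groups, 29 of 37 were higher as deposited (background 22.2%) and 19 rescaled (background 8.77%). In bulk tissue, more cells of a type and more RNA per cell cannot be told apart.

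The ATPase Psmc1 had the smallest p of the 37 subunits in the left ventricle. It measured 61.8, 68.4, 70.6 and 42.7 FPKM in banded left ventricles (PS_9552, PS_9553, PS_9561 and PS_9564), against 23.1, 16.3, 19.2 and 30.3 FPKM in sham left ventricles. Every banded library lay above every sham library, with a log2 difference of 1.42 ± 0.21 (SE, adjusted p = 0.00116) as deposited and 1.03 (adjusted p = 0.00615) rescaled. Psmc1 shares 13.7% of its 50-base words with the pseudogene Gm9575, and the counting may have split reads between them. Psmc3, another ATPase, measured 147, 132, 126 and 110 FPKM in banded left ventricles, against 60.9, 52.6, 55.6 and 77.4 FPKM in sham ones. Its groups were also free of overlap (log2 difference 1.06, adjusted p = 0.00133, rescaled 0.66, adjusted p = 0.0221). Psmc6, also an ATPase, measured 40.1, 76.2, 63.5 and 32.0 FPKM in banded left ventricles, against 19.8, 15.2, 22.1 and 22.3 FPKM in sham ones (log2 difference 1.31, adjusted p = 0.00457).

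Psmd4 is a ubiquitin receptor of the base, and its groups stood far apart. It measured 114, 102, 104 and 91.9 FPKM in banded left ventricles, against 52.1, 35.3, 40.1 and 54.3 FPKM in sham ones (log2 difference 1.18, adjusted p = 0.00136, rescaled 0.78, adjusted p = 0.016). The alpha subunit Psma6 measured 132, 160, 144 and 84.2 FPKM in banded left ventricles, against 51.7, 33.0, 43.0 and 70.6 FPKM in sham ones (log2 difference 1.39, adjusted p = 0.00299). The lid subunit Psmd7 measured 88.3, 76.6, 83.6 and 55.6 FPKM in banded left ventricles, against 39.7, 36.0, 36.9 and 42.7 FPKM in sham ones (log2 difference 0.93, adjusted p = 0.00666). In Psmc1, Psmc3, Psmc6, Psmd4, Psma6 and Psmd7, library PS_9564 was the lowest of the banded left ventricles, and it is the only one of the 4 with an Rn45s value above 0. All 3 tested base subunits other than ATPases (Psmd1, Psmd2 and Psmd4) rose, as did 3 of 6 ATPases, 1 of 8 lid subunits, 1 of 7 alpha subunits, and 0 of the 7 beta subunits of the standard core, whose differences were 0.44 to 1.12 as deposited. Psmd2 shares 23.9% of its 50-base words with Gm5422. By role, the median difference as deposited was 0.99 for the alpha ring, 1.03 for the catalytic and 0.65 for the other beta subunits, 0.99 for the ATPases, 1.10 for the other base subunits, 0.89 for the lid and 0.66 for the assembly factors. Rescaled, in the same order, the medians were 0.61, 0.62, 0.25, 0.59, 0.71, 0.50 and 0.30, and with length and GC content adjusted for as well, that of the non-catalytic beta subunits was -0.073.

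**Figure D1:**
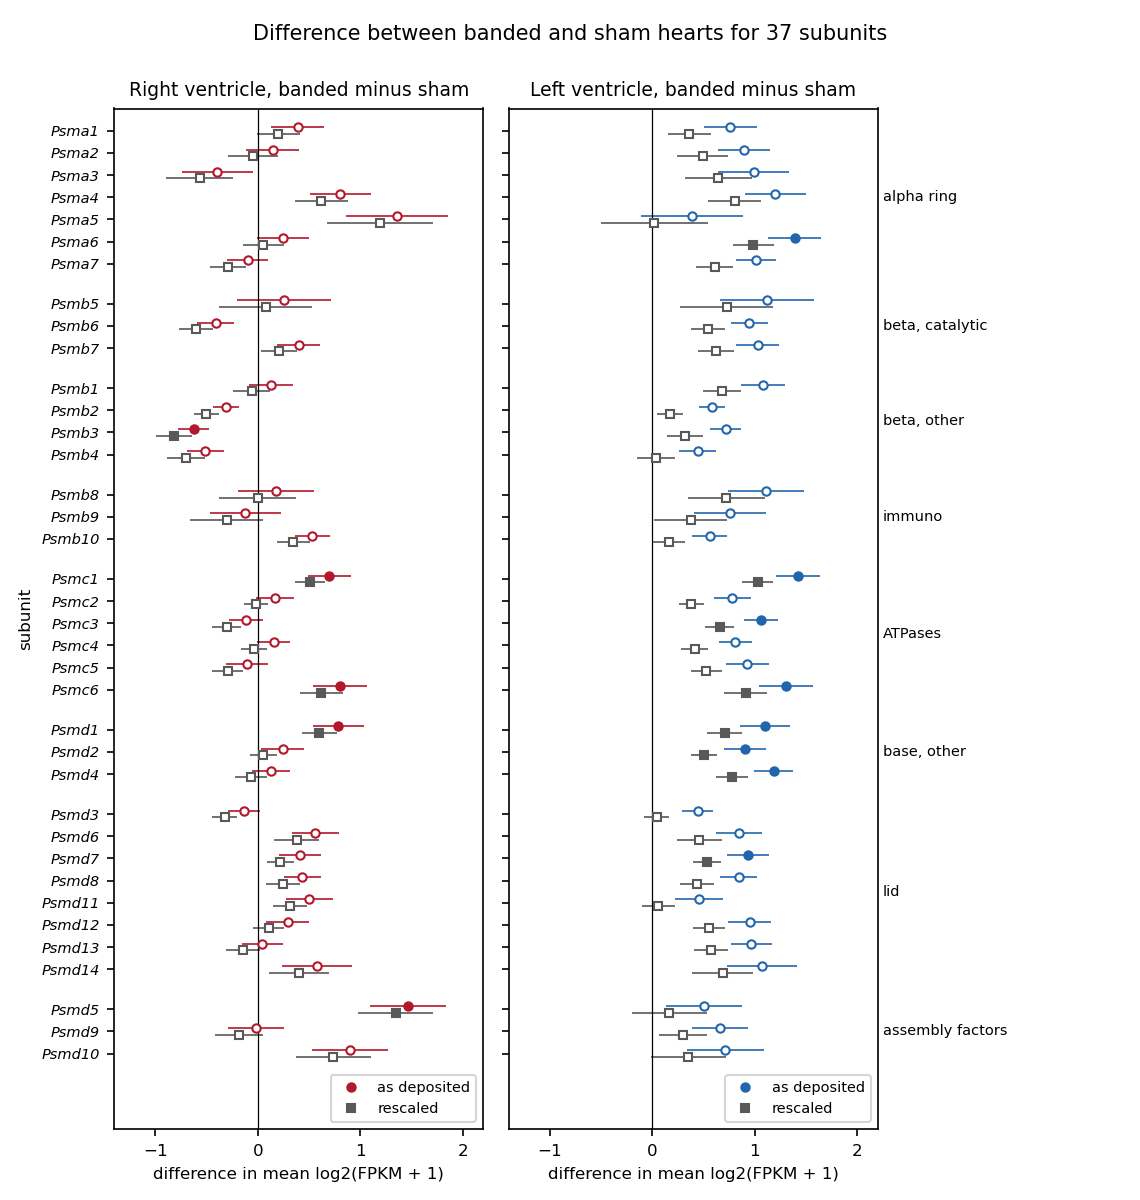
Difference in mean log2(FPKM + 1) between banded and sham hearts for the 37 tested subunits, banded minus sham, in the right (left panel) and left ventricle (right panel), by role. Circles are values as deposited and squares rescaled values, bars are 1 SE from the limma fit, and filled symbols mark subunits called on both scales. Left ventricular points all lie right of 0, between 0.39 and 1.42 as deposited, while right ventricular points lie on both sides, between -0.63 and 1.47.

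The left ventricular count of 8 depends on single libraries. It was 4 without banded PS_9552, 1 without PS_9553, 3 without PS_9561, 3 without sham 1, 1 without sham 2, 1 without sham 3 and 17 without sham 4. Psmc1 kept its call in each of the 16 omissions. Psmd2 lost its call in 8 of them, Psmd1 and Psmd7 in 6 each, Psmc3 and Psmc6 in 5 each, Psma6 in 4 and Psmd4 in 3. When the rescaled values were adjusted for transcript length and GC content, the median was 0.34, against -0.0054 for all tested genes. Of the 37, 31 lay above 0, where this held for 5939 of 12020 tested genes with a known length. With only libraries that had an Rn45s value above 0, the single banded library PS_9564 set against 4 sham libraries, the median was 0.55 as deposited and 0.42 rescaled, 35 and 33 of 37 were above 0, and none was called. For other genes of similar length the medians in these libraries were 0.21 as deposited and 0.10 rescaled. The lone value of PS_9564 is assumed to vary like the other groups. Myl2 and Tnni3, 2 of 8 cardiomyocyte markers, rose as well, and their list summed to 47564 to 61067 FPKM in banded left ventricles and 23873 to 37503 FPKM in sham ones. Of 13 tested leukocyte markers C1qb and Lyz2 rose, with sums of 285 to 476 FPKM in banded and 124 to 207 FPKM in sham left ventricles. Of 4 pancreatic islet genes Ins2 fell, with sums of 24.0 to 58.2 FPKM in banded and 86.6 to 2085 FPKM in sham left ventricles. The list of 8 endothelial markers summed to 318 to 478 FPKM in banded and 296 to 329 FPKM in sham left ventricles, and that of 6 fibroblast markers summed to 297 to 599 FPKM in banded and 162 to 263 FPKM in sham left ventricles. Their part in the result was not tested.

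**Figure D2:**
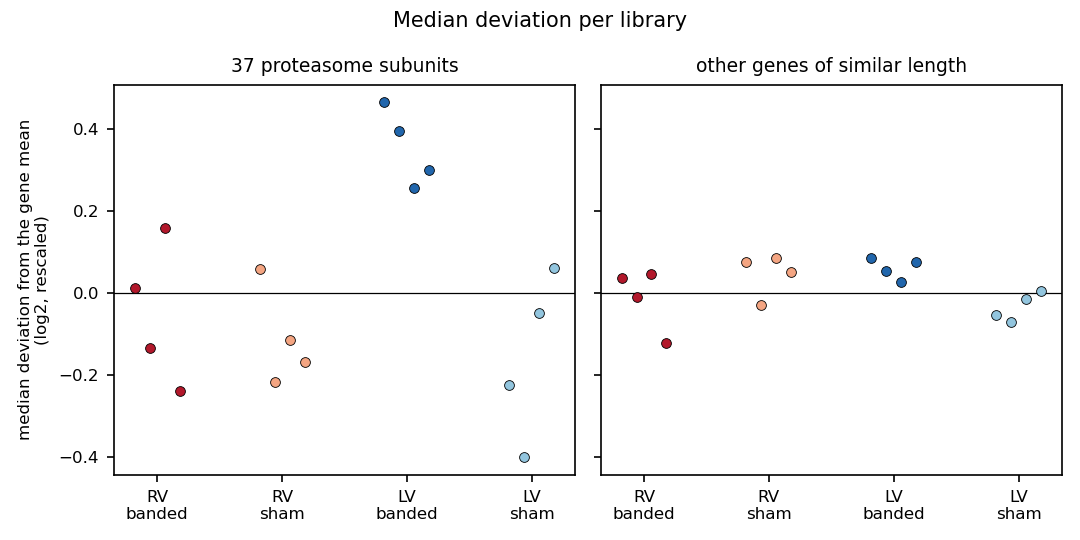
Median deviation per library from each gene's mean over the 16 libraries, in log2 units on the rescaled values, for the 37 tested subunits (left panel) and for 4752 other genes with transcripts of similar length (right panel). Each point is 1 library. The subunit medians of the 4 banded left ventricles lie at 0.26 to 0.46, above all 12 other libraries.

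Per library, the subunit medians of banded left ventricles all lay above those of sham left ventricles. Their median rescaled deviation from the gene means was 0.46, 0.40, 0.26 and 0.30 in banded left ventricles (PS_9552, PS_9553, PS_9561 and PS_9564), against -0.22, -0.40, -0.047 and 0.062 in sham left ventricles 1 to 4. Library PS_9564, with Rn45s above 0, lay within the range of the 3 other banded libraries. In the right ventricle the deviation was 0.013, -0.13, 0.16 and -0.24 in banded libraries, against 0.058, -0.22, -0.11 and -0.17 in sham libraries, and these overlapped. For the other genes of similar length, banded left ventricles lay between 0.026 and 0.086 and sham left ventricles between -0.071 and 0.0050.

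In the loaded right ventricle the subunits did not share a direction. The median difference was 0.24 as deposited and 0.054 rescaled, close to the 0.15 and -0.0088 of other genes of similar length. Of the 37, 26 lay above 0 as deposited and 19 rescaled, where this held for 8429 and 7061 of all 12100 tested genes. On both scales 4 of the 37 rose, the ATPases Psmc1 and Psmc6, the base scaffold Psmd1 and the assembly chaperone Psmd5 (background 10.5%). Only 1 fell on both scales, the beta subunit Psmb3 (background 4.93%). Libraries of the groups did not overlap for 4 subunits higher (background 12.6%) and 1 lower (background 5.07%) as deposited, and for 4 higher (background 10.6%) and 4 lower (background 8.92%) rescaled. These shares are near those of all tested genes and are no result about the subunits as a group. By role, the median difference as deposited was 0.24 for the alpha ring, 0.25 for the catalytic and -0.41 for the other beta subunits, 0.16 for the ATPases, 0.24 for the other base subunits, 0.42 for the lid and 0.90 for the 3 assembly chaperones. Rescaled, in the same order, the medians were 0.054, 0.077, -0.60, -0.026, 0.055, 0.23 and 0.74, and the ATPase median thus changed sign.

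Psmd5 had the largest difference in the right ventricle. It measured 5.53, 3.75, 5.45 and 6.79 FPKM in banded right ventricles, against 3.76, 1.64, 0 and 1.14 FPKM in sham ones. Sham library 1 lay at the level of the lowest banded library, and the other 3 sham libraries lay below (log2 difference 1.47 ± 0.37 SE, adjusted p = 0.0135, rescaled 1.35, adjusted p = 0.0172). These values rest on an estimated 53.2 to 126 fragments per banded library and at most 22.6 per sham library, and adjusting for length and GC content gave an adjusted p of 0.0781.

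Psmd1, the scaffold of the base, measured 22.3, 20.9, 38.8 and 42.6 FPKM in banded right ventricles, against 18.7, 11.2, 19.3 and 19.6 FPKM in sham ones (log2 difference 0.79, adjusted p = 0.0378). Psmc1 measured 31.0, 29.2, 47.7 and 39.8 FPKM in banded right ventricles, against 23.9, 19.97, 19.3 and 25.1 FPKM in sham ones (log2 difference 0.70, adjusted p = 0.033). In both, every banded library lay above every sham library, and banded libraries PS_9561 and PS_9564, which list Rn45s at 0, were the highest. Psmc6 passed narrowly (log2 difference 0.80, adjusted p = 0.0451, rescaled adjusted p = 0.0493). With only the banded libraries PS_9552 and PS_9553, which have an Rn45s value above 0, the differences were 0.34 for Psmd1, 0.44 for Psmc1, 0.43 for Psmc6 and 1.29 for Psmd5, and none of these was called. The count of 4 higher was 1 without banded PS_9561, 2 without banded PS_9564 and 1 without sham 2, and Psmd5 and Psmb3 kept their calls in each of the 16 omissions. Psmc6 lost its call in 14 of the 16 omissions, Psmc1 in 4 and Psmd1 in 3. The count of 1 lower was 2 without banded right PS_9561, sham right 3 or sham left 2. With a fit to the right ventricular libraries alone, 0 subunits were called higher. Of 8 cardiomyocyte markers Tnni3 and Myl2 fell in the right ventricle (-1.02 and -0.87), and the list summed to 26369 to 34922 FPKM in banded and 35805 to 38869 FPKM in sham right ventricles. Of 13 tested leukocyte markers Tyrobp rose, with sums of 222 to 368 FPKM in banded and 155 to 236 FPKM in sham right ventricles. Of 6 fibroblast markers Col1a1 and Ddr2 rose, with sums of 260 to 420 FPKM in banded and 173 to 221 FPKM in sham right ventricles. Of 8 endothelial markers Pecam1 rose, with sums of 394 to 569 FPKM in banded and 290 to 383 FPKM in sham right ventricles. All 4 genes of a pancreatic islet list fell, with sums of 63.0 to 154 FPKM in banded and 633 to 2134 FPKM in sham right ventricles. Their part in the result was not tested.

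Psmb3, a beta subunit without an active site, lay lower in banded right ventricles and, as deposited only, higher in banded left ventricles. It measured 50.1, 44.5, 56.7 and 38.7 FPKM in banded right ventricles, against 78.3, 76.2, 75.9 and 63.4 FPKM in sham right ventricles, with no overlap (log2 difference -0.63, adjusted p = 0.0109, rescaled -0.82, adjusted p = 0.00454). It measured 65.3, 76.3, 64.7 and 58.1 FPKM in banded left ventricles, against 37.4, 33.1, 45.9 and 43.3 FPKM in sham left ventricles, with no overlap as deposited (log2 difference 0.72, adjusted p = 0.00584, but rescaled 0.32, adjusted p = 0.339). Rescaled, its left groups overlapped (50.4 to 61.9 in banded against 38.4 to 53.5 in sham libraries). Sham right ventricles lay above sham left ventricles (0.87, adjusted p = 0.0125), which made Psmb3 the one subunit called between the sham ventricles. Psmb3 shares 39.9% of its 50-base words with a pseudogene (AC114990.1), so part of its reads may have been counted elsewhere. With only libraries that had an Rn45s value above 0, the right ventricular difference was -0.62 (adjusted p = 0.0768). In rescaled values alone 4 subunits passed as lower in banded right ventricles (background 9.1%), Psmb3 and the beta subunits Psmb2, Psmb4 and Psmb6 (-0.50, -0.70 and -0.60, adjusted p = 0.0108, 0.014 and 0.0191), and as deposited they did not (adjusted p = 0.104, 0.0574 and 0.118).

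**Figure D3:**
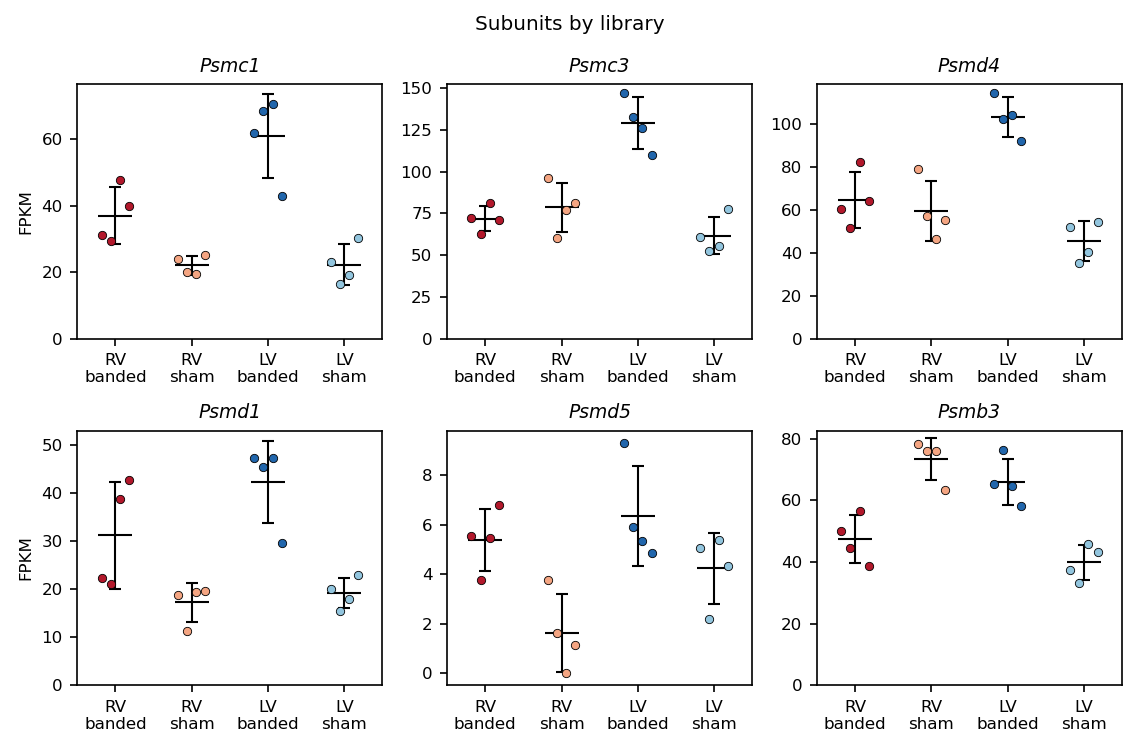
FPKM per library of 6 subunits in banded and sham right ventricles (RV) and banded and sham left ventricles (LV). Points are libraries, the long bars are group means and the error bars 1 SD (n = 4 per group). Psmc1, Psmc3 and Psmd4 are higher in the 4 banded left ventricles than in every other library of the left ventricle, and Psmb3 is lower in the 4 banded right ventricles (38.7 to 56.7 FPKM) than in the 4 sham ones (63.4 to 78.3 FPKM).

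For 7 of 37 subunits the banding difference of the right ventricle was lower than that of the left in a direct test, which uses the same libraries as the comparisons above. The right difference minus the left lay above 0 for 4 of 37 as deposited and 5 rescaled, where this held for 5477 and 6944 of all 12100 tested genes. Its median was -0.66 as deposited and -0.45 rescaled, against -0.28 and -0.10 for other genes of similar length and -0.066 and 0.11 for all tested genes. The genes of similar length do not reach down to the short transcripts of Psmb2, Psmb3 and Psmb6 (766 to 859 nt). The 7 called lower on both scales (background 3.45%) were Psmb2, Psmb3, Psmb6, Psma7, Psmc3, Psmc5 and Psmd4. None was called higher (background 0.529%), while 0 as deposited and 1 rescaled had a higher difference at an unadjusted limma p under 0.05. The core has 4 of the 7, and the ATPase ring has Psmc3 and Psmc5. The values were -1.34 for Psmb3 (adjusted p = 0.00148), -1.35 for Psmb6 (adjusted p = 0.00394), -1.17 for Psmc3 (adjusted p = 0.00527), -0.89 for Psmb2 (adjusted p = 0.00709), -1.06 for Psmd4 (adjusted p = 0.024), -1.11 for Psma7 (adjusted p = 0.0256) and -1.03 for Psmc5 (adjusted p = 0.0448).

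The libraries of Psma7 and Psmc3 show how the groups lie. Psma7, an alpha subunit, measured 78.6, 92.8, 125 and 82.9 FPKM in banded right ventricles, against 147, 77.2, 84.5 and 104 FPKM in sham right ventricles, which overlapped. It measured 172, 185, 143 and 125 FPKM in banded left ventricles, against 73.3, 72.3, 73.5 and 86.2 FPKM in sham left ventricles, which did not. Psmc3 also overlapped in the right ventricle, with 72.4, 62.8, 81.0 and 70.9 FPKM in banded right ventricles and 96.2, 59.9, 76.8 and 81.1 FPKM in sham ones. It was the only one of the 7 still called once length and GC content were adjusted for (-0.73, adjusted p = 0.0228), and it overlaps Slc39a13 on the opposite strand by 97 exonic bases, which matters if the counting ignored strand. Psmb2 measured 128, 119, 157 and 130 FPKM in banded right ventricles, against 192, 144, 158 and 167 FPKM in sham right ventricles, and 209, 194, 179 and 185 FPKM in banded left ventricles, against 137, 115, 129 and 130 FPKM in sham left ventricles. As deposited, the right groups of Psmb2 overlapped and its left groups did not. Rescaled, its right groups did not overlap (103 to 143 in banded against 163 to 203 in sham libraries). Its rescaled left groups did (139 to 190 in banded against 137 to 151 in sham libraries). Psmc5, an ATPase, measured 41.3, 39.0, 61.6 and 52.3 FPKM in banded right ventricles, against 60.5, 50.5, 35.4 and 64.4 FPKM in sham right ventricles, and 97.5, 79.9, 86.5 and 61.4 FPKM in banded left ventricles, against 43.2, 33.8, 41.5 and 49.8 FPKM in sham left ventricles. Psmd4 measured 60.2, 51.7, 82.2 and 64.2 FPKM in banded right ventricles, against 78.9, 56.9, 46.1 and 55.4 FPKM in sham right ventricles. For both, the right ventricular groups overlapped.

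The calls of Psmb3, Psmb6 and Psmc3 held in each of the 16 omissions, and the count of 7 was 3 without banded left PS_9552, PS_9553 or PS_9564, sham left 1, 2 or 3, or banded right PS_9553 or PS_9564, and 4 without sham right 1. After TPM scaling, whose total a single gene, Mir6236, fills to 21.3% to 59.7%, the median was 0.0066 against 0.48 for all tested genes, 19 of 37 lay above 0 and 0 were called. With only libraries with an Rn45s value above 0 the median was -0.54 and 0 were called. The cardiomyocyte markers Tnni3 and Myl2 were lower by the same comparison, with differences of -2.18 and -2.15, and their part in the result was not tested.

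These libraries also enter the comparisons above. Between banded ventricles, right against left, Psmc3, Psmb6, Psmc2, Psma6 and Psmd12 were called lower (background 1.39%), and none was called higher (background 0.182%). No subunit had a higher difference at an unadjusted limma p under 0.05. Psmc2, an ATPase, measured 29.7, 29.4, 38.6 and 37.6 FPKM in banded right ventricles, against 68.7, 71.2, 65.7 and 43.9 FPKM in banded left ventricles (-0.85, adjusted p = 0.02). Psmd12, of the lid, measured 20.9, 19.999, 30.7 and 27.9 FPKM in banded right ventricles, against 40.4, 54.6, 56.7 and 32.7 FPKM in banded left ventricles (-0.85, adjusted p = 0.0354). In both genes the groups did not overlap, as held for 10 subunits as deposited (background 8.16%) and 19 rescaled (background 7.69%). The differences of Psmc3, Psmb6 and Psma6 were -0.83, -0.90 and -1.09. The count of 5 was 0 without banded left PS_9552 or PS_9553 or banded right PS_9553, 1 without banded left PS_9561 or banded right PS_9552 or PS_9564, and 2 without banded left PS_9564 or banded right PS_9561. Of 8 cardiomyocyte markers Myh6, Myl2, Pln and Tnni3 were called lower, and the list summed to 26369 to 34922 FPKM in banded right ventricles and 47564 to 61067 FPKM in banded left ventricles. The fibroblast marker Col1a1 was called higher. Their part in the result was not tested.

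Between sham ventricles, right against left, the differences of the subunits ran from -1.15 to 0.87 as deposited, with a median of 0.068 as deposited and 0.017 rescaled. The median of the non-catalytic beta subunits was 0.47 as deposited and 0.41 rescaled. Psmb3 alone was called higher (background 2.55%), at 78.3, 76.2, 75.9 and 63.4 FPKM in sham right ventricles, against 37.4, 33.1, 45.9 and 43.3 FPKM in sham left ventricles. At an unadjusted limma p under 0.05, 7 were higher on each scale. None was called lower on both scales (background 1.33%), although 2 as deposited and 4 rescaled had an unadjusted limma p under 0.05. The share of all tested genes at this unadjusted limit is not given here. The unadjusted counts are therefore no result about the subunits as a group. Without sham right 1 or sham right 3, 1 was called lower. The lowest difference was that of Psmd5, at -1.15 (adjusted p = 0.0835), with 3.76, 1.64, 0 and 1.14 FPKM in sham right ventricles, against 5.04, 2.18, 5.38 and 4.33 FPKM in sham left ventricles. Rescaled it passed (-1.23, adjusted p = 0.0475). Of 8 cardiomyocyte markers Tnni3 was called higher, with sums of 35805 to 38869 FPKM in sham right and 23873 to 37503 FPKM in sham left ventricles. Of 4 pancreatic islet genes Gcg and Iapp were called higher, with sums of 633 to 2134 FPKM in sham right and 86.6 to 2085 FPKM in sham left ventricles. No leukocyte, endothelial or fibroblast marker was called. Their part in the result was not tested.

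No immunoproteasome subunit was called on both scales in either ventricle. Psmb8 measured 18.4, 13.8, 25.7 and 13.4 FPKM in banded right ventricles, against 8.76, 28.0, 8.26 and 24.7 FPKM in sham ones, and 29.2, 17.9, 29.5 and 22.3 FPKM in banded left ventricles, against 7.78, 8.35, 10.0 and 19.98 FPKM in sham ones. Its left difference of 1.11 missed the threshold (adjusted p = 0.0541). Psmb5, the subunit it replaces, measured 12.5, 21.0, 18.5 and 22.7 FPKM in banded right ventricles, against 25.9, 5.30, 9.77 and 36.2 FPKM in sham ones, and 38.0, 36.2, 31.6 and 27.2 FPKM in banded left ventricles, against 5.84, 18.7, 18.3 and 22.3 FPKM in sham ones. The sham right libraries spread widely for both genes. The left groups of Psmb5 did not overlap (1.12, adjusted p = 0.108), and Psmb5 shares 46.8% of its 50-base words with the pseudogene Gm3375.

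Psmb9 measured 22.8, 8.24, 23.4 and 13.4 FPKM in banded right ventricles, against 31.0, 19.9, 10.4 and 13.2 FPKM in sham ones, and 27.7, 16.3, 23.2 and 22.1 FPKM in banded left ventricles, against 10.3, 8.32, 14.5 and 19.6 FPKM in sham ones. Psmb6, its standard counterpart, measured 91.8, 99.2, 125 and 86.8 FPKM in banded right ventricles, against 152, 112, 118 and 155 FPKM in sham ones, and 218, 180, 187 and 166 FPKM in banded left ventricles, against 93.5, 74.3, 93.9 and 133 FPKM in sham ones. As deposited, the left groups of Psmb6 did not overlap, while those of Psmb9 did. Rescaled, those of Psmb6 overlapped narrowly as well (145.8 to 170.0 in banded against 88.5 to 146.0 in sham libraries). Psmb9 and Tap1, a peptide transporter gene, overlap on opposite strands by 212 exonic bases.

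Psmb10 passed as deposited in both ventricles and rescaled in neither. It measured 60.7, 59.0, 66.7 and 51.4 FPKM in banded right ventricles, against 54.1, 34.1, 37.4 and 39.3 FPKM in sham ones (0.53, adjusted p = 0.0398, but rescaled 0.34, adjusted p = 0.142). In left ventricles it measured 72.6, 56.8, 61.9 and 48.5 FPKM in banded, against 46.9, 32.8, 41.4 and 40.2 FPKM in sham ones (0.56, adjusted p = 0.0357, rescaled 0.16, adjusted p = 0.652). Psmb7, which Psmb10 replaces, measured 81.2, 83.1, 138 and 98.4 FPKM in banded right ventricles, against 60.7, 82.2, 81.8 and 73.4 FPKM in sham ones, and 222, 202, 156 and 141 FPKM in banded left ventricles, against 95.8, 61.5, 86.2 and 110 FPKM in sham ones. With length and GC content adjusted for, the right ventricular difference of Psmb10 was 0.67 (adjusted p = 0.00242), and it is not counted as risen because the rescaled test alone did not pass. Psmb7 shares 405 exonic bases with Nek6 on the opposite strand.

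**Figure D4:**
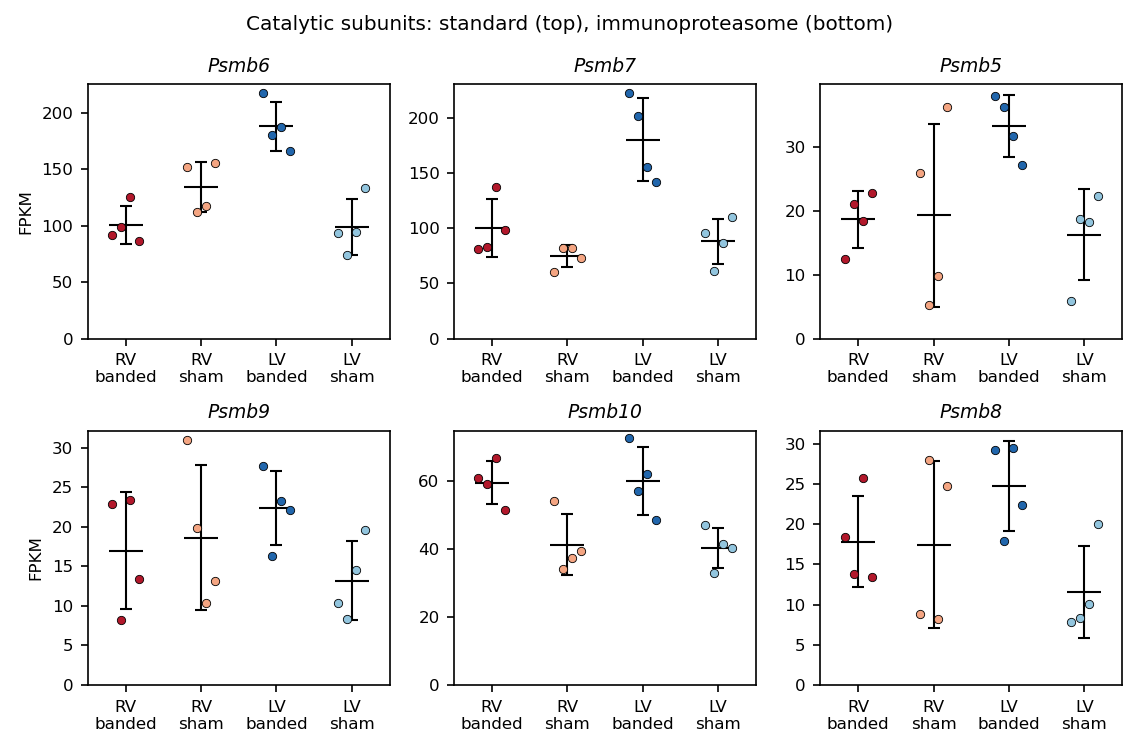
FPKM per library of the 3 standard catalytic subunits (upper row: Psmb6, Psmb7, Psmb5) and the immunoproteasome subunits that take their places (lower row, in the same order: Psmb9, Psmb10, Psmb8), in banded and sham right ventricles (RV) and banded and sham left ventricles (LV). Points are libraries, the long bars are means and the error bars 1 SD (n = 4 per group). As deposited, the standard subunits lie higher in banded than in sham left ventricles, and the immunoproteasome subunits overlap between banded and sham ventricles except Psmb10 in the left ventricle (48.5 to 72.6 against 32.8 to 46.9 FPKM). Rescaled, the left groups of Psmb10 overlap (46.1 to 56.6 against 39.0 to 48.3), as do those of Psmb6.

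Ratios within a library, in which a common scale factor largely cancels, were compared by exact two-sided permutation tests, and 6 such tests were run (the smallest p that 4 against 4 libraries allow is 0.0286). None passed after Benjamini-Hochberg adjustment. The log2 ratio of Psmb10 to Psmb7 was -1.56 ± 0.20 in banded and -1.09 ± 0.23 in sham left ventricles (SD, n = 4 each), lower by 0.47 in banded ones (exact p = 0.0571, adjusted p = 0.343). In right ventricles it was -0.72 ± 0.31 in banded and -0.85 ± 0.48 in sham libraries (exact p = 0.714, adjusted p = 0.971). For Psmb9 to Psmb6 the difference was 0.29 in right ventricles (exact p = 0.543, adjusted p = 0.971) and -0.19 in left ventricles (exact p = 0.314, adjusted p = 0.943). For Psmb8 to Psmb5 it was -0.076 in right ventricles (exact p = 0.943, adjusted p = 0.971) and -0.011 in left ventricles (exact p = 0.971, adjusted p = 0.971). These misses do not show that the ratios are equal.

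Genes that work with the proteasome were read from lists written from general knowledge, with older symbols used where the table has them (Shfm1, Ufd1l). Of all tested genes, 10.5% were called higher and 4.93% lower in the right ventricle, and 2.44% higher in the left. In the right difference minus the left 3.45% were called lower, and 2.55% were called higher between sham ventricles. Set against these shares, single calls in lists this short are no result about a list. Of 5 other activators and inhibitors, Psme4, an activator cap, rose in the right ventricle (1.18, adjusted p = 0.00681), and Psme1 and Psme2, which form the interferon-inducible cap, were lower in the right difference minus the left (-1.24 and -1.34, adjusted p = 0.00621 and 0.0103). Of 5 core chaperones, Psmg3 fell in the right ventricle (-0.86, adjusted p = 0.016) and Psmg1 was lower in the right difference minus the left (-1.25, adjusted p = 0.00703). Of 5 further parts and deubiquitinases, Uchl5 rose in the right ventricle (1.27, adjusted p = 0.0433) and Shfm1 was lower in the right difference minus the left (-1.32, adjusted p = 0.00492). Of 6 ubiquitin and E1 genes, 5 were tested and Ubb, a polyubiquitin gene, was lower in the right difference minus the left (-1.55, adjusted p = 0.0122) and higher in sham right than sham left ventricles (1.10, adjusted p = 0.0232). In the left ventricle none of these 20 tested genes was called by limma.

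Of 10 shuttle and segregase genes, Nploc4 rose in the right ventricle (0.66, adjusted p = 0.0157, background 10.5%). Nfe2l1 and Nfe2l2, transcription factors that regulate proteasome genes, were not called in either ventricle. Of 10 genes of MHC class I antigen processing, Pdia3 rose in the right ventricle (0.95, adjusted p = 0.0306, background 10.5%). B2m and Calr of this list rose in the left (1.80 and 1.35, adjusted p = 0.00325 and 0.00241, background 2.44%). Calr was lower in the right difference minus the left (-1.24, adjusted p = 0.0332, background 3.45%). Between banded ventricles Psme1 was lower in right than in left (-0.90, adjusted p = 0.0118, background 1.39%).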

How the data were processed

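RNA abundance was measured in 16 polyA libraries of 4 groups. Per the submitters' processing notes, reads were handled with FastQC 0.11.5, STAR 2.5.3a, Cufflinks 2.2.1, Cuffdiff and R 3.3.1 on mm9, and the authors deposited FPKM values for 23946 genes, so counts and library strand were not given in the sources used here. Depth was estimated from steps of low values in genes with 1 transcript. The log2(FPKM + 1) values of 12100 genes were tested with limma 3.58.1 (R 4.3.3, trended prior, Benjamini-Hochberg), and again after division by median-ratio factors over 8211 genes. The code was tested on simulated data. Ratios were tested by exact permutation. Values per library are given for catalytic and immunoproteasome subunits and, per comparison, for up to 6 other called subunits of smallest p (up to 3 per direction where both occur). Under 3 calls, the largest and smallest differences are named. The members, lists and alternatives were chosen with earlier results of these data known. Other settings tried were pseudocounts, filters, TPM and quantile scaling, length and GC adjustment, array weights, a replicate block, leaving libraries out and using only libraries with Rn45s above 0. Some results of the pathway lists are not reported here.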

Additional observations from a re-analysis of the deposited data

Results flagged for a closer look

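Over the 20 subunits chosen by the naming rule, 80 groups of 4 libraries were examined for a single library far from the other 3, and 5 were found, where chance gives about 1 in 20. Psmd1 was at 11.2 FPKM in sham right ventricle 2 and at 29.6 FPKM in banded left ventricle PS_9564, each the lowest of its group. Psmb3 was at 63.4 FPKM in sham right ventricle 4, the lowest of its group. Psma7 was at 86.2 FPKM in sham left ventricle 4, the highest of its group, and Psmc2 was at 38.6 FPKM in sham right ventricle 4, also the highest.

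The banding difference of the right ventricle minus that of the left passed the limma threshold for 7 subunits on both scales. The log2 values as deposited were -1.35 for Psmb6, -1.34 for Psmb3, -1.17 for Psmc3, -1.11 for Psma7, -1.06 for Psmd4, -1.03 for Psmc5 and -0.89 for Psmb2. For all 7 the left ventricular difference lay above 0, and the right ventricular difference lay below 0 as deposited except for Psmd4 (0.13).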

How the results depend on the processing

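Counts of called subunits moved with the processing. For right ventricles higher (4), no filter gave 2, TPM 20, a fit to the compared libraries alone 0, length and GC adjustment 2, libraries with Rn45s above 0 alone 0 and array weights 1. For right ventricles lower (1), rescaling alone gave 4, TPM 0, quantile scaling 4, length and GC 3 and Rn45s above 0 gave 0. For left ventricles higher (8), deposited values alone gave 25, a filter of 5 FPKM 14, TPM 1, quantile scaling 5, the compared libraries alone 13, Rn45s above 0 gave 0 and array weights 22. For the right minus left difference, lower (7), TPM gave 0, quantile scaling 3, length and GC 1 and Rn45s above 0 gave 0. Between sham ventricles, higher (1), TPM, the compared libraries alone, length and GC, and array weights each gave 0, while lower (0) was 1 rescaled, 12 with TPM and 1 with quantile scaling. Between banded ventricles, lower (5), no filter gave 3, TPM 0, quantile scaling 1, Rn45s above 0 gave 0 and array weights 15. The cause was not tested. Apart from those stated above for a single scale, shares of all tested genes called under these settings are not given here. The counts are therefore no result about the subunits as a group. With TPM the median right ventricular difference was 0.73 for the subunits and 0.65 for all tested genes. Between sham ventricles the TPM median was -0.47 for both.

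Leaving out 1 library gave 1 to 5 and 1 to 2 for right ventricles higher and lower, 1 to 17 for left ventricles higher, 3 to 9 for the difference, 0 to 1 for sham ventricles lower and 0 to 6 for banded ventricles lower. The banded minus sham difference of the log2 ratio ranged from -0.56 to 0.66 (right) and -0.23 to 0.25 (left) for Psmb8 to Psmb5. For Psmb9 to Psmb6 this difference ranged from 0.078 to 0.57 (right) and from -0.26 to -0.067 (left). For Psmb10 to Psmb7 it ranged from 0.0041 to 0.36 (right) and from -0.58 to -0.39 (left). Same-numbered libraries of the ventricles deviated together with r over 0.1 in 1 of 8 pairs (0.16 for PS_9552), and 1 library correlated best with its own number. The labels do not say whether a number marks 1 mouse, and the numbers were not treated as pairs. With a replicate block the difference had 1 call lower, sham ventricles 0 higher and banded ventricles 0 lower. Of the values of single subunits under other settings, 996 kept their side of the threshold, 39 passed newly and 85 no longer passed. No value that was called in either setting reversed direction. Uncalled values could change sign, as in right ventricles for Psmb5 (-0.20 to 0.66) and Psmb9 (-0.34 to 0.16) with 1 library left out. Estimated depth limits low members such as Psmd5 in sham right ventricles.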
